A study of Mus musculus with 10 samples.

Results

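Pck1, G6pc, Fbp1 and Pcx, the genes of the 4 enzymes that carry the one-way steps of gluconeogenesis, were read in single cells of the mouse kidney cortex before and after injury. They are 4 of the 28808 genes in the deposited tables and were chosen by name, with earlier results of these data known. Their counts were taken from proximal tubule barcodes, which were picked on 22 proximal marker genes that include none of the 4. A barcode stands for the RNA caught on 1 bead, usually from 1 cell. Of 64803 deposited barcodes 52797 were kept, and 29853 of these were proximal. The material was kidney cortex from mice aged 4 weeks, sequenced by Drop-seq as 10 libraries. One library came from normal kidneys (control), 1 each from days 1, 2 and 4 after injury, and 2 each from days 7, 11 and 14. The kind of injury, sex, strain, animal and batch are not given in the sources used here, and all groups share age and tissue. Whether both libraries of a day came from different animals is not stated either, so every p-value measures only the spread between libraries, which may be technical.

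Gluconeogenesis makes glucose from lactate, amino acids and glycerol. It runs through most steps of glycolysis backwards and needs its own enzymes where glycolysis is irreversible. Pyruvate carboxylase (Pcx) turns pyruvate into oxaloacetate in mitochondria, phosphoenolpyruvate carboxykinase (Pck1) turns oxaloacetate into phosphoenolpyruvate in the cytosol, fructose-1,6-bisphosphatase (Fbp1) removes a phosphate from fructose bisphosphate, and the catalytic subunit of glucose-6-phosphatase (G6pc) releases free glucose in the endoplasmic reticulum. Besides the liver, the kidney is the main organ that does this, and within the kidney it is done by the proximal tubule, which also raises Pck1 when it makes ammonia in acidosis.

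On GRCm38 with the GENCODE M21 annotation, Pck1 lies on chromosome 2 at 173153048 to 173159273 (plus strand), G6pc on chromosome 11 at 101367561 to 101377903 (plus strand), Fbp1 on chromosome 13 at 62864753 to 62888282 (minus strand) and Pcx on chromosome 19 at 4510472 to 4621752 (plus strand). Pcx holds the gene Lrfn4 on the opposite strand, and whether the counting used strand is not given in the sources used here. No other gene overlapped a member. The promoters of Pck1 and G6pc, the members with the lowest levels against control after injury, are shown because they are the textbook examples of hormone-controlled promoters in this pathway. They are the 250 bases before the gene's start in RefSeq (GRCm38.p6), at chr2:173152823-173153072 for Pck1 and at chr11:101367466-101367715 for G6pc, both on the plus strand. Both windows end past the GENCODE start given above, so part of each lies inside the GENCODE gene. Distances of motifs are counted from the RefSeq start. Capitals mark exact matches of 5 short motifs searched on both strands.
Pck1: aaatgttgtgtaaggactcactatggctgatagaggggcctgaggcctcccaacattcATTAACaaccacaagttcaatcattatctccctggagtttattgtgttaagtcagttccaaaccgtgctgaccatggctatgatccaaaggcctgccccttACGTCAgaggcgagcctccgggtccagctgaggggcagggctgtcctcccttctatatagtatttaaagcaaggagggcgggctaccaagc
G6pc: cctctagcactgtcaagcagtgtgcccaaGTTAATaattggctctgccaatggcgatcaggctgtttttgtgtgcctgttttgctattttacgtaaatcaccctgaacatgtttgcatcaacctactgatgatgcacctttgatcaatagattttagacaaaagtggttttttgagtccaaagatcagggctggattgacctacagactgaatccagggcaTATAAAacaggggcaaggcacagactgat

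The Pck1 window held the cAMP response element core ACGTCA, starting 91 bases before the gene's start, and an HNF1 core (GTTAAT, on the other strand) at 192 bases. The G6pc window held GTTAAT at 221 bases and the TATA box letters TATAAA at 29 bases. Of all 32851 windows of the same length, 6.469% held ACGTCA, 6.432% held GTTAAT and 12.37% held TATAAA, on either strand. The other motifs searched were CAAAGTCCA for HNF4 and TGTTTAC for FOXO factors, found in 0.3835% and 3.166% of windows. The windows of Fbp1 and the pair of windows listed for Pcx matched none of the 5 motifs. A match is a string of letters, not a measured binding site.

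The proximal barcodes carried a median of 6 to 13 of the 22 proximal markers per barcode in each library, where the gate asks for at least 3. Their number ran from 584 (day 7, replicate 1) to 5281 per library and their summed depth from 1364856 to 17203710 UMIs (unique molecular identifiers, counts of captured molecules). The day 7 libraries had the fewest proximal barcodes, 584 and 846, which were 16.1% and 16.4% of kept barcodes against 63.1% in the control. Several other measures moved with the days. The share of Havcr1-positive proximal barcodes was 64.4%, 10.2% and 55.9% in the libraries of days 1, 2 and 4, 67.8% and 57.2% in those of day 7, and at most 1.09% elsewhere. Havcr1 encodes KIM-1, a tubular injury marker. Of the barcodes that could be assigned to a segment, those of S3, the last segment of the proximal tubule, were 4.78% on day 2, 9.05% on day 1 and 22.5% to 74.9% elsewhere. The summed level of the 22 proximal markers was 20925 CPM (UMIs per 1000000 proximal UMIs) in the control, 8060 on day 1, 7676 and 8419 in the day 7 pair, 18630 and 13387 in the libraries of days 2 and 4, and 25076 to 26067 later. It was thus lowest in the day 1 and day 7 libraries, and its part in the members' levels was not tested. The median mitochondrial share was 22.9% in the control and 4.5% in replicate 1 of day 7. Every marker of each other cell class had UMIs in the proximal sums. The thick limb markers were highest, at 236 to 1205 CPM per library with a median of 612. All 9 macrophage markers together were at 12.1 to 708 CPM with a median of 66.1 and the highest value in replicate 1 of day 7. The libraries shared 99 barcode sequences over 35 of 45 pairs of libraries, at most 11 per pair, 19 of them among proximal barcodes.

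Levels are given in CPM, with exact Poisson 95% intervals that cover counting error only. Because each molecule is counted once at its 3' end, they were not divided by length, and levels are compared between libraries and not between genes. Pck1 was at 954 in the control and at 113, 458 and 394 in the libraries of days 1, 2 and 4. The day 7 replicates had 82.1 (67.6 to 98.7) and 208 (194 to 223), those of day 11 had 985 and 1134, and those of day 14 had 1236 and 1337. The 3 lowest values belonged to days 1 and 7, and all 4 values of days 11 and 14 were above the control on this scale. After TMM scaling, the one used for the tests described further on, replicate 1 of day 11 was below the control (1197 against 1246 CPM) and the other 3 were above it.

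G6pc was at 170.0 in the control and at 17.8 (13.7 to 22.8), 174 and 45.5 in the libraries of days 1, 2 and 4. The day 7 replicates had 24.2 (16.6 to 34.0) and 29.6 (24.6 to 35.4), those of day 11 had 199 and 143, and those of day 14 had 263 and 218. Days 1, 4 and 7 were low, day 2 had the level of the control within its counting interval (165 to 182) but was below it after TMM scaling (161 against 222), and the day 11 replicates lay on either side of the control.

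Fbp1 was at 947 in the control and at 217, 1101 and 813 in the libraries of days 1, 2 and 4. The day 7 replicates had 363 and 381, those of day 11 had 1145 and 1160.1, and those of day 14 had 1682 and 1750.1. Replicates of a day differed by at most 1.05-fold, the closest of the 4 genes. The order from lowest to highest was day 1, day 7, day 4, control, day 2, day 11 and day 14, and after TMM scaling day 2 (1024) was below the control (1238).

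Pcx was at 106 in the control and at 39.0 (32.8 to 46.1), 122 and 66.2 in the libraries of days 1, 2 and 4. The day 7 replicates had 24.9 (17.3 to 34.8) and 34.8 (29.3 to 41.1), those of day 11 had 94.6 and 132, and those of day 14 had 98.2 and 114. Days 7 and 1 were lowest and day 4 intermediate, while the control, day 2, day 11 and day 14 lay between 94.6 and 132. After TMM scaling day 2 (114) was below the control (138.4). So were replicate 1 of day 11 (115) and both day 14 libraries (121 and 137.9), and replicate 2 of day 11 (158) was above it.

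**Figure D1:**
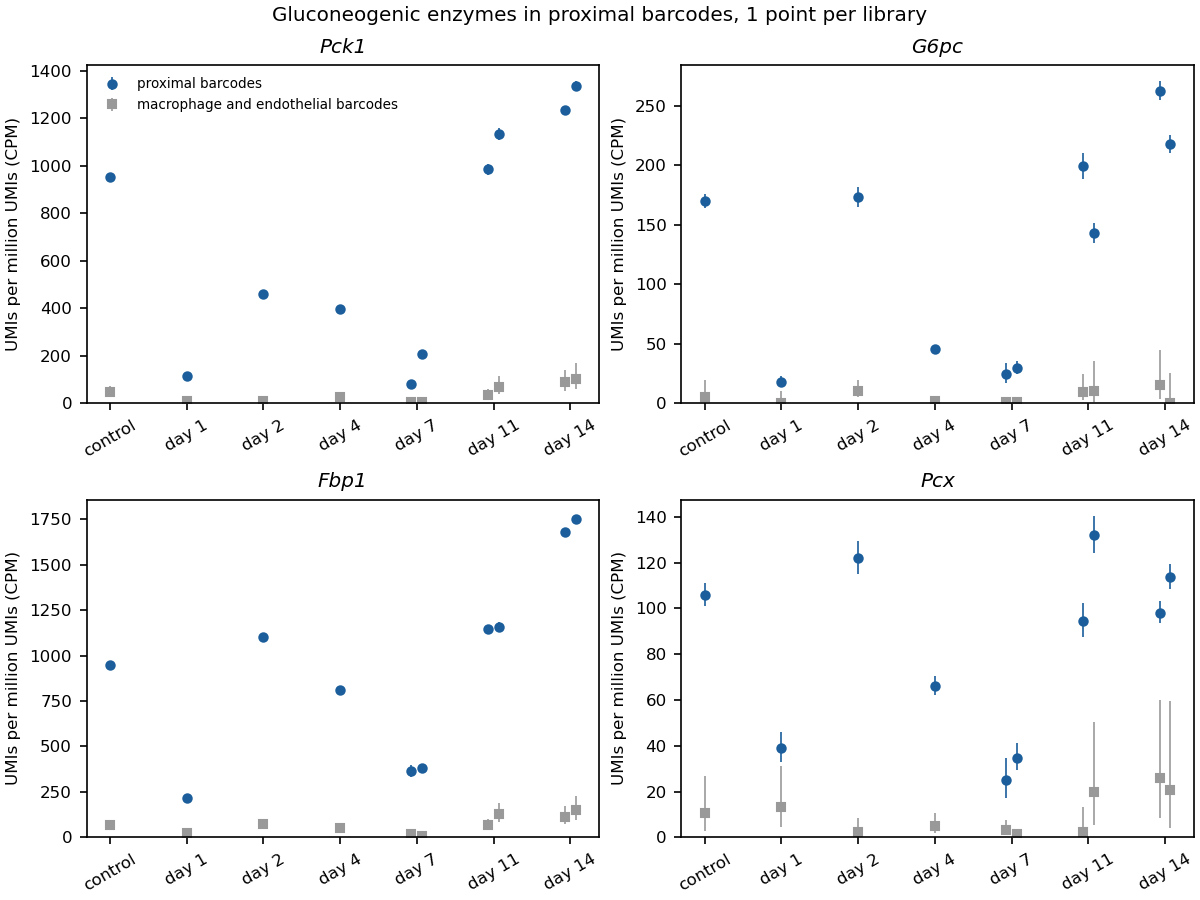
Level of each gene in CPM (UMIs per 1000000 UMIs, linear axis from 0) by day, 1 point per library. Blue circles are proximal barcodes, grey squares macrophage and endothelial barcodes pooled per library, and bars are exact Poisson 95% intervals. Pck1 and Fbp1 are lowest on days 1 and 7 and highest on day 14, and the grey squares lie below the blue circles of the same library in every panel.

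The first comparison asked how far the pathway was below control on day 7, the time with the lowest replicated values. All 4 enzymes fell. The mean of the day 7 replicates was 145 ± 89.1 CPM for Pck1, 26.9 ± 3.85 for G6pc, 372 ± 12.6 for Fbp1 and 29.9 ± 7.0 for Pcx (SD, n = 2), which was 15.2%, 15.8%, 39.3% and 28.2% of the control library. Library sums were tested with edgeR's quasi-likelihood test on TMM-scaled counts with Benjamini-Hochberg adjustment over 15332 genes. TMM scaling sets the typical gene to no change. The log2 change was −3.50 (SE 0.39, adjusted p = 5.61e-05) for Pck1 and −3.45 (SE 0.27, adjusted p = 8.11e-06) for G6pc, 11.3-fold and 11-fold lower. It was −2.18 (SE 0.20, adjusted p = 1.53e-05) for Fbp1 and −2.60 (SE 0.27, adjusted p = 3.46e-05) for Pcx, 4.53-fold and 6.08-fold lower. Both day 7 libraries were below the control for each gene. Of all genes tested 18.8% were called lower and 17.4% higher.

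The size of the day 7 change turned on the scaling and on the cells taken. Its fitted direction was the same in each alternative run. With library totals alone the median gene was 0.79 higher on day 7 on the log2 scale, and the changes were −2.68, −2.63, −1.35 and −1.78 in the order Pck1, G6pc, Fbp1, Pcx. The split of all calls then moved from 2669 higher and 2878 lower to 6735 higher and 973 lower. Replicate 1 of day 7 had less Pck1 than replicate 2, by 2.54-fold, and without replicate 2 the Pck1 change was −4.41. Within S1/S2 barcodes alone the 4 changes were −3.28, −3.83, −1.67 and −2.59, and within S3 barcodes alone −2.79, −2.67, −2.18 and −2.32, and all 8 passed the edgeR test. Within Havcr1-negative barcodes alone they were −2.05, −1.86, −1.06 and −1.18, and the Fbp1 change no longer passed (edgeR adjusted p = 0.0562). Fbp1 in those barcodes was at 549 and 954 CPM in the day 7 pair against 941 in the control. By CPM replicate 2 was thus not lower there. Pcx was at 45.0 and 96.1 against 105, Pck1 at 141 and 584 against 948, and G6pc at 48.2 and 96.1 against 170. This subset was not fitted with library totals alone. The restrictions to a segment or to Havcr1-negative barcodes were chosen after the shares of segments and of Havcr1-positive barcodes had been seen. Leaving the mitochondrial genes out of the sums gave changes of −3.50, −3.45, −2.17 and −2.60 with TMM scaling. Library totals without mitochondrial genes were not fitted, so the part of the mitochondrial share in the CPM levels was not tested. The part of RNA of macrophages and other cell classes in the proximal sums was not tested.

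Days 1, 2 and 4 had 1 library each, so their differences from the control have no replicate check and no test. On day 1 all 4 genes were past 2-fold lower than the control, with TMM-scaled log2 ratios of −3.69 (Pck1), −3.85 (G6pc), −2.74 (Fbp1) and −2.05 (Pcx). They stayed past 2-fold under each of 13 alternative gates, scalings and subsets. Among all genes 15.3% were past 2-fold lower on day 1. On day 2 only Pck1 was past 2-fold lower, at −1.55, against 10.5% of all genes, and within S1/S2 barcodes alone its ratio was −0.87. The day 2 ratios of G6pc, Fbp1 and Pcx were −0.46, −0.27 and −0.29, and with library totals alone they were 0.03, 0.22 and 0.20. On day 4 Pck1 (−1.92), G6pc (−2.54) and Pcx (−1.32) were past 2-fold lower and Fbp1 (−0.86) was not, against 14% of all genes. The Pcx ratio was −0.68 when scaled by library totals alone, and it was past 2-fold in 11 of 13 alternatives. Within Havcr1-negative barcodes the day 4 ratios were −0.87 (Pck1), −1.45 (G6pc), −0.34 (Pcx) and −0.01 (Fbp1). Of days 1, 2, 4 and 7, day 2 had the fewest Havcr1-positive barcodes by share and the TMM-scaled values nearest to 0 for each gene. Its 1 library also had the lowest S3 share (4.78%) and the highest summed level of the proximal markers (18630 CPM) of those days. A link of these measures with the members' levels was not tested.

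The next comparisons asked whether the levels of days 11 and 14 differed from day 7 and from the control. Against day 7 all 4 genes rose on both days. On day 11 the mean levels were 1059 ± 105 CPM for Pck1, 171 ± 39.9 for G6pc, 1153 ± 10.7 for Fbp1 and 113 ± 26.5 for Pcx (SD, n = 2). The log2 changes from day 7 to day 11 were 3.54 (SE 0.36, adjusted p = 2.53e-05) for Pck1, 3.35 (SE 0.25, adjusted p = 4.44e-06) for G6pc, 2.35 (SE 0.18, adjusted p = 4.44e-06) for Fbp1 and 2.58 (SE 0.24, adjusted p = 1.50e-05) for Pcx by edgeR. In that comparison 18.9% of all genes were called higher and 19.3% lower. On day 14 the means were 1286 ± 71.2, 240.5 ± 31.6, 1716 ± 47.9 and 106 ± 11.1 CPM in the same order. The changes from day 7 were 3.84, 3.86, 2.94 and 2.51 (edgeR adjusted p from 6.79e-07 to 1.27e-05), with 20.3% of all genes called higher and 20.3% lower. Every library of days 11 and 14 was above both day 7 libraries for each gene. With library totals alone the changes were 2.83, 2.64, 1.63 and 1.88 for day 11 and 3.11, 3.13, 2.2 and 1.78 for day 14. Without replicate 2 of day 7 the Pck1 changes were 4.45 and 4.75.

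Against the control, no member passed the edgeR test on day 11. The log2 differences were 0.03 (SE 0.39) for Pck1, −0.10 (SE 0.26) for G6pc, 0.17 (SE 0.21) for Fbp1 and −0.02 (SE 0.26) for Pcx, none had an unadjusted p under 0.05 and DESeq2 called none. Among all genes 10.4% were called lower and 8.27% higher. On day 14 the differences were 0.33 (SE 0.40), 0.41 (SE 0.26), 0.76 (SE 0.21) and −0.10 (SE 0.26). Fbp1 was at 181% of the control by mean CPM, was above it in both libraries, and had an edgeR adjusted p of 0.0550 and an unadjusted p of 0.00396. DESeq2 called it (adjusted p = 0.00606), as did 10 of 21 alternatives in all, with adjusted p from 0.00606 to 0.419. No other member had an unadjusted p under 0.05 on day 14, when 3.57% of all genes were called lower and 2.8% higher. A p that misses the threshold does not show that levels were equal, and the single control library limits these comparisons. All comparisons with the control share that 1 library.

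Between days 11 and 14, Fbp1 was the one member past the threshold, with a log2 change of 0.59 (SE 0.17) and an edgeR adjusted p of 0.0437. Both day 14 libraries, at 1682 and 1750.1 CPM, were above both day 11 libraries, at 1145 and 1160.1. The call was lost in 11 of 22 alternatives, among them leaving out any 1 of the 4 libraries (adjusted p from 0.162 to 0.224), while the change stayed between 0.48 and 0.89 over the 22. The log2 differences of Pck1 (0.30), G6pc (0.51) and Pcx (−0.08) did not pass. Of all genes 4.83% were called higher and 6.38% lower on day 14.

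The split of all calls into higher and lower moved with the scaling in each comparison. With library totals alone it moved least in day 14 against day 11, from 740 higher and 978 lower to 663 and 995. RLE, another scaling, gave 616 and 1037 there. The direction of the members' called changes did not move. With library totals alone the median gene stood 0.15 above the control on day 11 and 0.08 on day 14 on the log2 scale. The calls on day 11 against control were then 1789 higher and 1273 lower, in place of 1268 and 1592, and those on day 14 were 642 and 433, in place of 429 and 547. Against day 7 they were 1317 higher and 6966 lower on day 11 and 1268 and 7199 on day 14, in place of 2893 and 2955 and of 3106 and 3106. For S3 against S1/S2 they were 1170 higher and 2151 lower, in place of 1706 and 1585, and for the Havcr1 states, described further on, 1465 and 579, in place of 778 and 982.

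**Figure D2:**
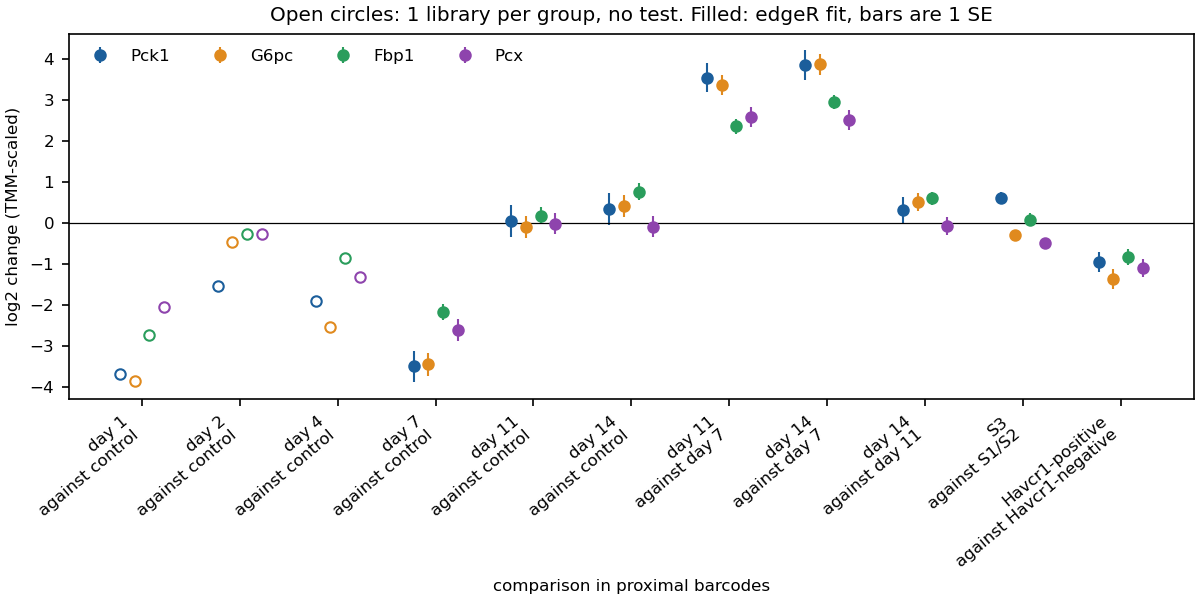
TMM-scaled log2 change of each gene (vertical axis) in 11 comparisons of proximal barcodes. Open circles are ratios of 1 library to 1 control library without a test, filled circles are edgeR estimates and bars are 1 SE. All points of day 7 against control lie between −3.50 and −2.18, and those of day 11 and day 14 against day 7 between 2.35 and 3.86.

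The share of proximal barcodes with at least 1 UMI was also read. For depth, each barcode was thinned to 1000 UMIs and shallower ones, 82 to 805 per library, were left out. Unthinned shares of all 4 genes did not keep the order of the summed levels, with Pck1 for example below the control on days 11 and 14. No order is therefore read from them. Pck1 was seen after thinning in 52.4% of barcodes in the control (76.2% before thinning) and in 9.87%, 29.9% and 24.6% in the libraries of days 1, 2 and 4 (20.5%, 48.3% and 36.4% before). The day 7 replicates had 6.52% and 14% (8.73% and 22.2% before), and the 4 libraries of days 11 and 14 had 55.3% to 58.7% (65.9% to 74.1% before). Fbp1 was seen in 56.1% of control barcodes (82.1% before thinning), in 28.3% and 26.3% at day 7 (37.3% and 44.2% before) and in 76.3% and 76.5% at day 14 (89.4% and 89.6% before). G6pc was seen in 16.4% of control barcodes (36.9% before), in 2.17% and 4.45% at day 7 (3.60% and 8.98% before) and in 22.1% and 18.1% at day 14 (39.3% and 35.2% before). Pcx was seen in 10.5% of control barcodes (30.3% before), in 3.70% and 4.45% at day 7 (5.65% and 11.8% before) and in 9.28% and 11.2% at day 14 (22.3% and 26.1% before). In macrophage and endothelial barcodes, which are not known for gluconeogenesis and can carry free RNA of the droplets, the thinned shares over all libraries were 0.00% to 11.4% for Pck1, 0.88% to 12.8% for Fbp1, 0.00% to 2.55% for G6pc and 0.00% to 3.49% for Pcx. Those barcodes had medians of 1018 to 1692 UMIs against 1372 to 2604.5 in proximal barcodes. On day 7 their Pck1 shares were 0.387% and 0.405% and their G6pc shares 0.00% in both libraries, below the proximal shares.

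The value of every member was below its proximal level of the same library in thick ascending limb, collecting duct principal, endothelial and macrophage barcodes, though some rest on few UMIs. The counting interval reached the proximal level for macrophage G6pc (0 UMIs, up to 32.7 CPM) and Pcx (3 UMIs, up to 77.8) on day 1, macrophage Pcx in replicate 1 of day 14 (1 UMI, up to 162), and endothelial G6pc (up to 42.6) and Pcx (up to 28.2) in replicate 1 of day 7. There the difference was not detectable at this depth. Among the other classes, intercalated G6pc on day 4 (47.8 against 45.5 CPM) and neutrophil Pcx on day 1 (55.4 against 39.0) were above the proximal level, on 1 UMI each. Summed over all libraries, Pck1 stood at 869 CPM (863 to 875) in proximal barcodes, and its library values ran from 0.836 to 51.4 CPM in thick limb, 1.42 to 66.4 in principal, 0.00 to 104 in endothelial and 0.00 to 98.3 in macrophage barcodes. The highest library values of G6pc in those classes were 7.86, 10.1, 19.4 and 7.82 CPM in the same order, against 161 over all proximal barcodes. Those of Fbp1 were 121, 101, 146 and 157 against 1163, and those of Pcx were 14.7, 20.2, 24.96 and 29.1 against 96.1. The classes were not ordered among themselves, because the libraries contribute unequally to them. Of 3638 macrophage barcodes 1060 and 1552 came from the day 7 pair, with Pck1 at 4.87 and 4.17 CPM, while the day 14 pair gave 26 and 33 of them, with Pck1 at 58.3 and 98.3. The part of free proximal RNA in these values was not tested.

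The proximal tubule runs from the convoluted segments S1 and S2 to the straight segment S3. Barcodes were assigned with 5 markers per segment, none of them a member, and both sums of each library were compared in a paired edgeR model over 10 libraries and 10862 genes. Pck1 was higher in S3, with a log2 difference of 0.61 (SE 0.15, adjusted p = 0.0040), in 8 of 10 libraries. In the control it was at 1029.6 CPM in S3 against 729.7 in S1/S2, and on day 14 at 1447 and 1635 against 765 and 949. The libraries that went the other way were day 2 (355 against 468) and replicate 1 of day 7 (91.5 against 97.3). Pcx was lower in S3, with a difference of −0.50 (SE 0.09, adjusted p = 0.00048), in 8 of 10 libraries. It was at 90.7 against 149.6 CPM in the control and at 77.9 and 107.0 against 135 and 201 on day 11. Of all genes 15.7% were called higher and 14.6% lower in S3.

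G6pc and Fbp1 did not pass between segments. G6pc was lower in S3 in 8 of 10 libraries, for example at 143 against 251 CPM in the control and at 169 and 112 against 272 and 253 on day 11, with a log2 difference of −0.30 (SE 0.13, edgeR adjusted p = 0.0808). It passed without replicate 2 of day 7 (−0.39, adjusted p = 0.00795), where it was 1.90-fold higher in S3. Fbp1 differed by 0.07 (SE 0.16, adjusted p = 0.773). Its S3 level was 0.297 of the S1/S2 level in replicate 1 of day 7 and 1.78 times that level in replicate 2, so the replicates went in opposite directions. Day 1 had 77, day 2 had 94 and replicate 1 of day 7 had 95 S3 barcodes.

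**Figure D3:**
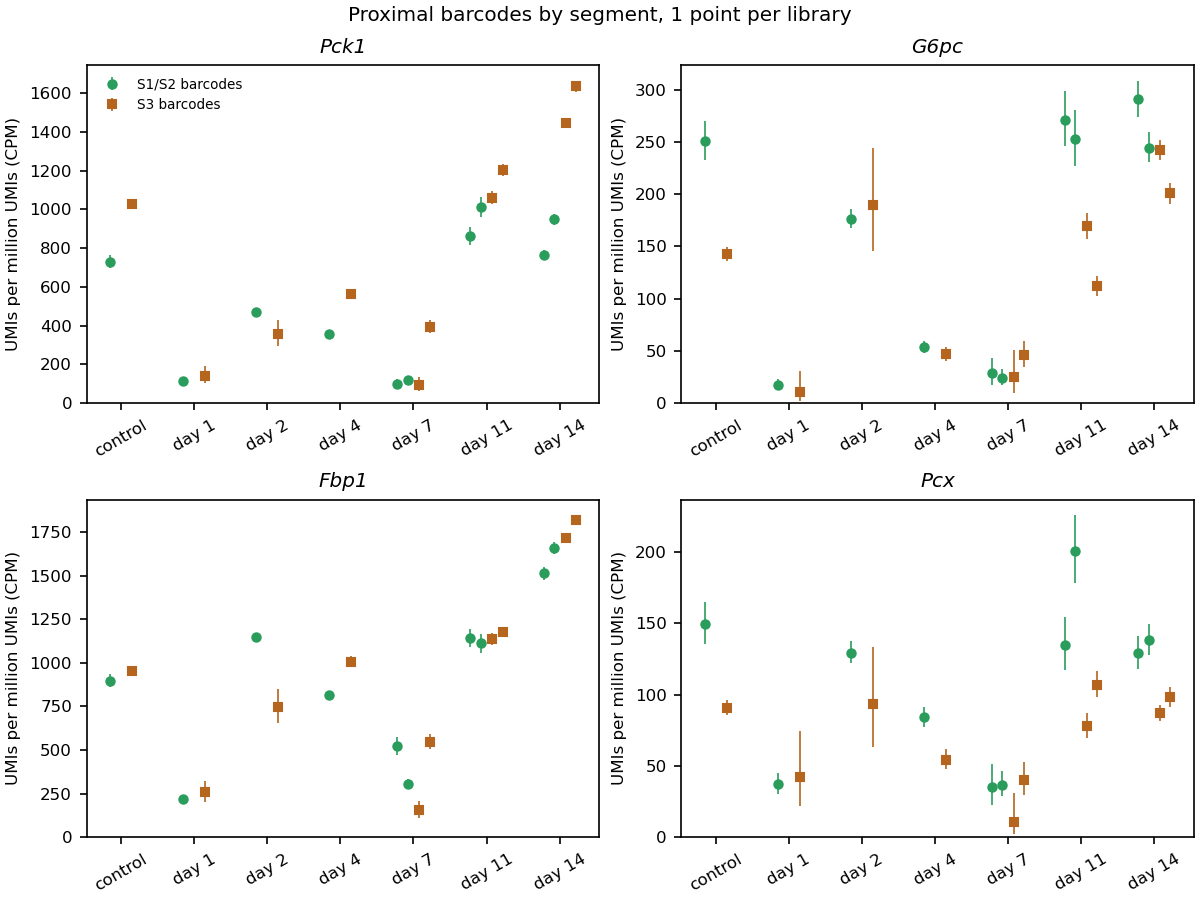
Level of each gene in CPM (UMIs per 1000000 UMIs, linear axis from 0) by day in S1/S2 (green circles) and S3 (brown squares) proximal barcodes, 1 point per library, with exact Poisson 95% intervals. Pck1 in S3 is above S1/S2 in 8 of 10 libraries and Pcx in S3 is below S1/S2 in 8 of 10.

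Within injured kidneys, proximal barcodes with at least 1 Havcr1 UMI were compared with those without, paired within 8 libraries with at least 30 barcodes of each state. In that paired fit all 4 enzymes were lower in Havcr1-positive barcodes, though not in every library. The difference was largest in replicate 2 of day 7, where Pck1 was at 99.8 CPM in positive and 584 in negative barcodes, G6pc at 10.5 and 96.1, Fbp1 at 216 and 954, and Pcx at 17.2 and 96.1. On day 4 Pck1 was at 239 in positive and 747 in negative barcodes, G6pc at 26.1 and 89.4, Fbp1 at 579 and 1345, and Pcx at 43.0 and 119. On day 1 the pairs were 99.1 and 167 for Pck1, 13.1 and 35.9 for G6pc, 189 and 326 for Fbp1 and 34.8 and 55.2 for Pcx. So day 1 levels were under the control, 948 for Pck1 in its Havcr1-negative barcodes, in both states. On day 14, with 51 positive barcodes per library, the genes did not all go 1 way. Fbp1 was at 1891 and 1836 in positive against 1678 and 1748 in negative barcodes, higher in both libraries. Pck1 was at 1636 and 1104 against 1227 and 1341, G6pc at 192 and 219 against 264 and 218, and Pcx at 100 and 84.9 against 98.2 and 115.

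By edgeR the log2 differences were −0.96 (SE 0.24, adjusted p = 0.0120) for Pck1, −1.38 (SE 0.25, adjusted p = 0.00152) for G6pc, −0.83 (SE 0.20, adjusted p = 0.00905) for Fbp1 and −1.10 (SE 0.22, adjusted p = 0.00317) for Pcx. They were lower in 7, 7, 6 and 7 of 8 libraries. Of 10618 genes 9.25% were called lower and 7.33% higher. In the libraries with at least 100 barcodes of each state the differences were −1.41, −1.88, −1.18 and −1.31. Without day 4 Pck1 (−0.82, adjusted p = 0.0639) and Fbp1 (−0.75, adjusted p = 0.0512) no longer passed.

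A barcode without a Havcr1 UMI may still express the gene. Positive barcodes were the deeper ones in each library, with medians of 2307 against 1240 UMIs on day 1, 2497.5 against 1665 on day 4, and 1864.5 against 1171 and 3454.5 against 1636 in the day 7 pair. Macrophage and endothelial barcodes, which should lack Havcr1, had a Havcr1 UMI in 23.7%, 4.24% and 20.3% of cases in the libraries of days 1, 2 and 4, in 10.7% and 4.56% in the day 7 pair and in 0% elsewhere. After thinning every barcode to 1000 UMIs these shares were 16.7%, 2.91%, 12.5%, 6.96% and 2.50% in that order, and the proximal shares were 55.6%, 5.36%, 43.1%, 63.5% and 42.9%. The state was then called again from the thinned counts, an alternative chosen after the data were seen, which left 5 libraries (days 1, 2, 4 and both of day 7) with at least 30 barcodes of each state. The log2 differences were −1.77 (Pck1, adjusted p = 7.88e-05), −1.87 (G6pc, adjusted p = 0.000581), −1.37 (Fbp1, adjusted p = 3.85e-05) and −1.37 (Pcx, adjusted p = 0.000301) by edgeR over 5979 genes, of which 8.55% were called lower and 6% higher. All 4 were lower in this fit too, which also had fewer libraries and left out barcodes under 1000 UMIs. The part of depth alone and that of free Havcr1 RNA were not tested.

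**Figure D4:**
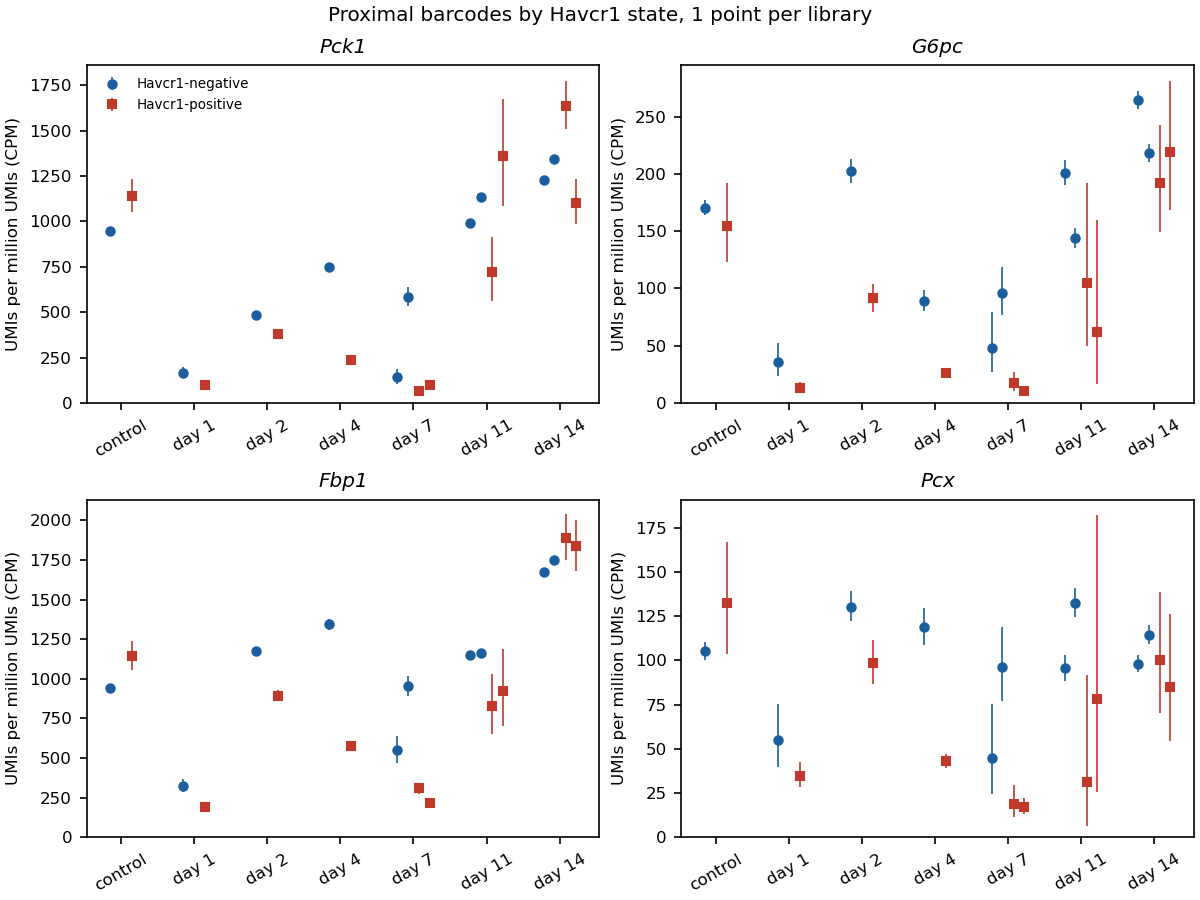
Level of each gene in CPM (UMIs per 1000000 UMIs, linear axis from 0) by day in Havcr1-negative (blue circles) and Havcr1-positive (red squares) proximal barcodes, 1 point per library, with exact Poisson 95% intervals. On days 1, 2, 4 and 7 every red square is below the blue circle of its library. The control and day 11, replicate 2 (27 positive barcodes) were not in the test.

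The 4 genes did not move in fixed proportion. There were 1.01 Pck1 UMIs per Fbp1 UMI in the control and 0.522, 0.416 and 0.485 in the libraries of days 1, 2 and 4. The ratio was 0.226 and 0.546 for the day 7 pair, 0.860 and 0.977 for the day 11 pair and 0.735 and 0.764 for the day 14 pair. All 9 injured libraries were thus under the control in that ratio, replicate 2 of day 11 by the least (0.977 against 1.01). G6pc per Fbp1 was 0.179 in the control, 0.158 on day 2, 0.0559 to 0.0821 on days 1, 4 and 7, and 0.123 to 0.174 on days 11 and 14. Fbp1 per Pcx was 8.94 in the control and 5.56, 9.02 and 12.3 in the libraries of days 1, 2 and 4. It was 14.6 and 10.95 for the day 7 pair, 12.1 and 8.78 for the day 11 pair and 17.1 and 15.4 for the day 14 pair, so day 2 and a replicate of day 11 lay near the control and replicates of days 7 and 11 were apart. Ratios within a library do not depend on its scaling, and none of these ratios was tested. Over the 10 libraries the log2 levels of pairs of members had Pearson r from 0.928 (Fbp1 with Pcx) to 0.972 (G6pc with Fbp1), as a description of libraries that share the days and the scaling.

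Each enzyme except Pcx has a relative encoded by another gene. Fbp2, the muscle-type fructose bisphosphatase, lies next to Fbp1 on chromosome 13 at 62836877 to 62858422, on the same strand with 6330 bases between them. It was at 14.2 CPM in proximal barcodes of the control and at 98.9, 90.0 and 112 in the libraries of days 1, 2 and 4. The day 7 pair had 178 and 155, the day 11 pair 48.0 and 37.7, and the day 14 pair 34.8 and 31.9. All 9 injured libraries were above the control, and the day 7 pair was highest. Fbp1 was low in that pair but lowest on day 1 (217 CPM), and on day 2 it was at 1101 against 947 in the control. By edgeR Fbp2 rose by 2.71 on the log2 scale on day 7 (SE 0.26, adjusted p = 2.13e-05), and it was above the control on day 11 by 1.47 (SE 0.24, adjusted p = 0.00324) and on day 14 by 1.13 (SE 0.24, adjusted p = 0.0211). From day 7 it fell by 1.23 to day 11 (edgeR adjusted p = 0.000403) and by 1.57 to day 14 (edgeR adjusted p = 5.88e-05). With all kept barcodes these changes were 0.0823 and 0.0706, and neither passed (edgeR adjusted p = 0.707 and 0.736). The call of day 14 against the control was lost without either day 14 library and within either segment alone (S1/S2 edgeR adjusted p = 0.0653, S3 edgeR adjusted p = 0.0533). Fbp2 was lower in S3 than in S1/S2 in 10 of 10 libraries, by −0.77 (SE 0.09, adjusted p = 6.99e-06). Between Havcr1 states it differed by 0.20 (SE 0.15, adjusted p = 0.414). In thick limb, principal and pooled macrophage and endothelial barcodes it was at 0.0 to 14.1 CPM per library.

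Pck2, the mitochondrial form of the carboxykinase, was at 4.48 CPM in the control (77 UMIs), 15.8 to 22.3 on days 1 to 7 and 6.10 to 8.83 on days 11 and 14. Its day 7 change was 1.37 (SE 0.30, edgeR adjusted p = 0.00409). Pck2 is below the level set for naming genes and was chosen after its values were seen. In pooled macrophage and endothelial barcodes it was at 50.1 CPM in the control, 22.0 and 18.3 in the day 7 pair and 11.5 to 68.2 over all libraries, and in principal barcodes it was at 13.5 to 29.1, above the proximal level of the same library in 10 of 10 on 2 to 39 UMIs. The part of other cells' RNA in the proximal change was not tested. In S1/S2 barcodes alone the change was 0.82 (adjusted p = 0.189), in Havcr1-negative barcodes 0.46 (adjusted p = 0.571) and with all kept barcodes 0.47 (adjusted p = 0.109). G6pc3, the widely expressed glucose-6-phosphatase subunit, was at 14.5 CPM in the control and 16.1 to 30.5 in injured libraries, with a day 7 difference of −0.12 (adjusted p = 0.810). G6pc2 was not among the genes tested.

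**Figure D5:**
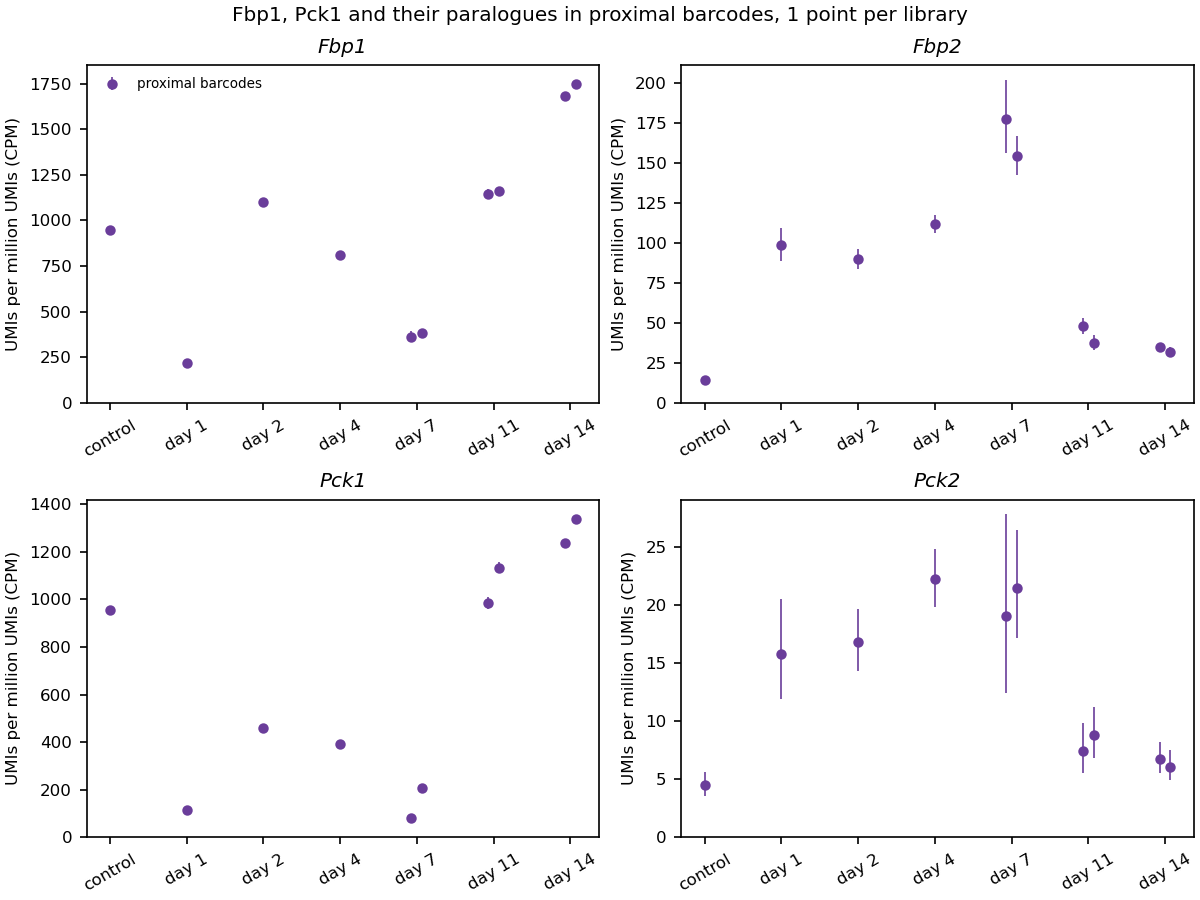
Level of Fbp1, Fbp2, Pck1 and Pck2 in proximal barcodes in CPM (UMIs per 1000000 UMIs, linear axes from 0 with different ranges) by day, 1 point per library, with exact Poisson 95% intervals. Fbp2 is highest at 178 and 155 on day 7 and lowest at 14.2 in the control, while Fbp1 on day 7 is at 363 and 381 against 947 in the control.

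Other genes of the pathway were read from lists drawn up with earlier results of these data known, so their counts are a description. Gluconeogenic carbon enters through the mitochondrial pyruvate carrier and leaves the mitochondrion mostly as malate or aspartate. Of 10 genes for these steps 7 fell on day 7 and none rose, beside 18.8% of all genes called lower and 17.4% called higher, with a median log2 change of −1.14 against 0.04 over all genes. With library totals alone 3 fell and 1 rose, beside 973 lower and 6735 higher of 15332 genes. Mdh1, cytosolic malate dehydrogenase, was at 899.8 CPM in the control and at 452 and 475 on day 7, a change of −1.79 (SE 0.20, edgeR adjusted p = 5.63e-05). Slc25a10, the mitochondrial dicarboxylate carrier, changed by −1.82 and Mpc1, a subunit of the pyruvate carrier, by −1.52. Slc25a10 did not pass within Havcr1-negative barcodes alone (−0.88, adjusted p = 0.14). From day 7 to day 11, 9 of the 10 rose, beside 18.9% of all genes. With library totals alone 6 rose, beside 1317 of 15332 genes called higher.

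Of 13 tested genes for substrate supply 8 fell and 2 rose on day 7 (median −0.98). Of all genes the same 18.8% were lower and 17.4% higher, and the count of 2 that rose is near that share. With library totals alone 5 fell and 3 rose, beside 973 lower and 6735 higher of 15332 genes. Slc5a8, a sodium-coupled lactate transporter of the proximal brush border, was at 237 CPM in the control and at 7.63, 9.27 and 80.9 in the libraries of days 1, 2 and 4. The day 7 pair had 16.1 and 65.2, and days 11 and 14 had 166 to 211. Its day 7 change was −3.23 (SE 0.46, edgeR adjusted p = 0.000291). That change ran from −4.75 to −2.65 on leaving out 1 library at a time, and from −4.10 to −2.17 over the other 15 alternatives. Slc5a8 was higher in S3 by 2.58, and the S3 share was lowest on days 1 and 2. The part of the S3 share in the low values of those days was not tested. Khk, ketohexokinase of fructose breakdown, changed by −2.41 and Gpd1, cytosolic glycerol-3-phosphate dehydrogenase, by −1.76. The 2 that rose were Ldhb, a lactate dehydrogenase subunit, by 0.98 (adjusted p = 0.0169), and Aqp7, a glycerol channel, by 0.96 (adjusted p = 0.0361). Aqp7 was named after its values were seen. Ldhb was at 715 CPM in the control and at 1992 and 3001 on day 7, and its change was −0.41 with all kept barcodes, 0.18 within Havcr1-negative barcodes (adjusted p = 0.699) and 0.85 within S1/S2 barcodes (adjusted p = 0.0954).

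Of 9 genes for the reversible steps shared with glycolysis 3 fell on day 7 and none rose, with a median of −0.31, and 3 of 9 is not far from the 18.8% of all genes called lower. With library totals alone the median was 0.52, against 0.79 for the median gene. Then 1 was lower and 2 were higher, beside 973 lower and 6735 higher of 15332 genes. From day 7 to day 11, 8 of the 9 rose, beside 18.9% of all genes. With library totals alone 5 of the 9 rose, beside 1317 of 15332 genes called higher. On day 7 Pgk1, phosphoglycerate kinase, changed by −1.24 (edgeR adjusted p = 0.0018) and Tpi1, triosephosphate isomerase, by −0.81 (edgeR adjusted p = 0.0277). With library totals alone neither Pgk1 (−0.41) nor Tpi1 (0.02) passed. The Tpi1 call held in 14 of 21 alternatives and was also lost without replicate 1 of day 7 (−0.53, adjusted p = 0.0591), with only the groups compared (adjusted p = 0.0534), without the 5% of barcodes with most UMIs (adjusted p = 0.0526), and within S1/S2 (adjusted p = 0.0569), S3 (adjusted p = 0.177) or Havcr1-negative barcodes (adjusted p = 0.312). Of 8 tested genes for relatives and glucose export, Fbp2 and Pck2 rose, 2 of 8 beside 17.4% of all genes, and Slc37a4, which carries glucose-6-phosphate to G6pc, changed by −1.71 (adjusted p = 0.00043), a call lost within Havcr1-negative barcodes alone (−0.88, adjusted p = 0.13). With library totals alone 5 of these rose and 1 fell, beside 6735 higher and 973 lower of 15332 genes. Of 12 tested genes for the irreversible glycolytic steps, which run against the members, 3 rose (Hk2, Pfkfb3 and Pklr) and 3 fell (Pfkl, Pfkfb2 and Pfkfb4). Both counts are near the 17.4% higher and 18.8% lower of all genes. With library totals alone 4 rose and none fell, beside 6735 higher and 973 lower of 15332 genes. These 6 are under the level set for naming and were named after their values were seen.

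Of 21 genes for transcriptional and hormonal control 8 fell and 1, Irs2, rose on day 7 (median −0.60). Beside them 18.8% of all genes were lower and 17.4% higher. With library totals alone 3 fell and 5 rose (median 0.23), beside 973 lower and 6735 higher of 15332 genes and a median gene at 0.79. Irs2 was named after its values were seen. Klf15, a transcription factor known for control of gluconeogenesis and amino acid breakdown, was at 44.0 CPM in the control, 10.5, 20.2 and 14.8 in the libraries of days 1, 2 and 4, 3.66 and 9.63 in the day 7 pair, and 39.2 to 55.0 later. Its day 7 change was −3.32 (SE 0.35, edgeR adjusted p = 3.61e-05). That change ran from −4.45 to −2.98 on leaving out 1 library at a time, and from −3.92 to −1.57 over the other 15 alternatives. Klf15 was lower in Havcr1-positive barcodes by −0.99 (edgeR adjusted p = 0.0160). Ppara, a fatty acid receptor, changed by −2.02 on day 7, and by −2.85 to −1.68 on leaving out 1 library at a time. Within Havcr1-negative barcodes its change was −0.97 and did not pass (edgeR adjusted p = 0.073). Hnf4a, a proximal tubule and liver factor, changed by −1.53 on day 7. It was under the control on day 11 (−0.90, edgeR adjusted p = 0.0148), when the 4 enzymes were not called. On day 14 it was at −0.14 (edgeR adjusted p = 0.728). Its level was 197.9 CPM in the control and 123.8 and 120.7 in the day 7 pair. The day 11 pair, at 110.9 and 119.6, was no higher than the day 7 pair by CPM. After TMM scaling the change from day 7 to day 11 was 0.63 (edgeR adjusted p = 0.0183). In Havcr1-positive barcodes 7 of 20 tested genes of this list were lower and none higher, 3 of 10 for malate and pyruvate steps, and 3 of 12 for substrate supply, beside 9.25% lower and 7.33% higher of all genes. After thinning to 1000 UMIs 2 of 12, 3 of 10 and 2 of 9 were lower, beside 8.55% of all genes. Of the unthinned calls 5, 1 and 2 were lower with library totals alone, and 1 gene of substrate supply was higher. In that fit 579 of 10618 genes were lower and 1465 higher.

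Likeness was measured over 4155 genes whose mean log2 CPM was 5 or more, leaving out gate markers and mitochondrial genes. The genes whose log2 levels over the 10 libraries were most like Pck1 were Gcdh (Pearson r = 0.998), Hadh (r = 0.998) and Chchd3 (r = 0.995). Gcdh, glutaryl-CoA dehydrogenase, was at 162 CPM in the control, 41.3 on day 1, 35.2 and 63.4 in the day 7 pair and 234 and 249.6 in the day 14 pair. Among the 3 genes most like G6pc were Hgd (r = 0.987) and Galnt14 (r = 0.985). Hgd, homogentisate dioxygenase of tyrosine breakdown, was also the gene most like Fbp1 (r = 0.993), before Auh (r = 0.988). It was at 160 CPM in the control, 35.9 on day 1, 49.1 and 62.2 in the day 7 pair and 245 and 265 in the day 14 pair. Most like Pcx were Apeh (r = 0.987), Tcn2 (r = 0.978) and Prodh (r = 0.977). The libraries share their day, so these values describe the pattern over days.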

How the data were processed

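Kidney cortex of 10 mouse libraries was profiled by Drop-seq, in which microbeads carry barcodes and the 3' ends of transcripts are sequenced, per the labels' protocols. The authors deposited 1 table of whole-number counts per gene and barcode for each library. These were read as UMI counts, which the labels do not state. The submitters' processing notes name Bowtie2 2.2.7 and mm10, without their roles, and other steps are not given in the sources used here. Deposited counts ran from 7091848 to 31632205 per library.

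Kept barcodes had 500 or more UMIs, 500 or more genes and no more than 50% of UMIs from mitochondrial genes. A barcode was proximal when at least 3 proximal markers had a UMI and these were at least 2 times as many as those of each of 10 other classes (92 markers in all). Segment and Havcr1 states split these barcodes. No doublet caller was run, and an alternative dropped the 5% of barcodes with most UMIs. Proximal counts were summed per library and tested with edgeR 4.0.16 in R 4.3.3 (quasi-likelihood, filterByExpr, TMM, Benjamini-Hochberg over all genes at 0.05). All 7 groups shared 1 fit with 3 residual degrees of freedom, so the lone control was assumed to vary like the replicated days. SE is the log2 change divided by the root of F and restates the test. Single days were given as log2 ratios with a prior count of 2. Segments and Havcr1 states were fitted with the library as a block.

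Replicates of a day differed beyond sampling noise (chi-square per degree of freedom from 8.07 to 23.6), so none was merged. Named genes were the members, up to 3 per list and direction with the largest called day 7 change and a mean log2 CPM of at least 5 with both day 7 libraries on 1 side of the control, the 3 genes most like each member, and Havcr1. The members and lists were chosen with earlier results of these data known. Alternatives changed the scaling, filter, tool (DESeq2 1.42.0), gate, mitochondrial limit, groups fitted and replicates left out. Added after seeing the data were fits within S1/S2, S3 or Havcr1-negative barcodes, without mitochondrial genes, and of Havcr1 states called after thinning each barcode to 1000 UMIs. The listed genes Gk, Tkfc and Tigar were not analysed here, and a few genes that the naming rule picks are not reported here. The tests were tried on simulated data first.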

Additional observations from a re-analysis of the deposited data

Results flagged for a closer look

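A difference between time points set several results apart. These are the tests between days already given above, not further ones. The change from control differed between day 11 and day 7, by edgeR's test of the difference itself, by 3.54 on the log2 scale for Pck1, 3.35 for G6pc, 2.35 for Fbp1 and 2.58 for Pcx. Between day 14 and day 7 it differed by 3.84 for Pck1, 3.86 for G6pc, 2.94 for Fbp1 and 2.51 for Pcx. In all 8 cases both later libraries were above both day 7 libraries. Between day 14 and day 11 it differed for Fbp1, by 0.59, with a call that was lost on leaving out any 1 of the 4 libraries. No group had 4 or more libraries, so single libraries could not be checked as outliers within a group.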

How the results depend on the processing

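The falls of all 4 genes on day 7 and their rises to days 11 and 14 kept their direction in every alternative run and passed the test in all but 1, Fbp1 on day 7 within Havcr1-negative barcodes alone (−1.06, edgeR adjusted p = 0.0562). Most differences from the control on days 11 and 14 were near 0, and most changes of sign were among them. Where a call was lost or a sign changed and no reason is given, the cause was not tested.

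On day 11 against control Pck1 was −0.0164 with no filter on low counts and −0.0171 with only the groups compared, and G6pc was 0.0106 with total counts alone, 0.14 with all kept barcodes and 0.0835 with S1/S2 barcodes alone. Pcx was 0.10 with total counts alone, 0.00606 with at least 5 markers, 0.0167 with at most 25% mitochondrial UMIs, 0.27 with all kept barcodes, 0.18 with S1/S2 barcodes alone and 0.0018 with Havcr1-negative barcodes alone. On day 14 against control Fbp1 passed with no filter (0.79), total counts alone (0.86), DESeq2 (0.73), at least 5 markers (0.76), at most 25% mitochondrial UMIs (0.82), all kept barcodes (1.33), only the groups compared (0.76) and without mitochondrial genes (0.76). With all kept barcodes G6pc passed at 0.97 and Pcx was 0.46, and Pcx was 0.000958 with total counts alone. On day 14 against day 11 Fbp1 was lost with RLE scaling (0.55), without the 5% of barcodes with most UMIs (0.48), with Havcr1-bearing barcodes added (0.60) and with S1/S2 (0.51), S3 (0.55) or Havcr1-negative barcodes (0.58) alone. There G6pc passed with no filter (0.58) and all kept barcodes (0.84), Pck1 was −0.11 in S1/S2 barcodes, and Pcx was 0.00272 with no filter and 0.19 with all kept barcodes. Between segments G6pc passed with total counts alone (−0.39) and without the 5% of barcodes with most UMIs (−0.46), where Fbp1 was −0.0212. Of other genes, Tpi1 was 0.019 on day 7 with total counts alone, and with all kept barcodes Ldhb was −0.41 on day 7 and Fbp2 0.0823 and 0.0706 on days 11 and 14 against day 7.

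Counts of called genes moved by over 1.5 times as follows. Day 7 against control had 5547, and 2874 with S1/S2 and 2641 with Havcr1-negative barcodes alone. Day 11 against control had 2860, and 875 with S1/S2 barcodes. Day 14 against control had 976, and 1966 with no filter, 1474 with all kept barcodes, 3189 with only the groups compared and 311 with S1/S2 barcodes. Day 11 against day 7 had 5848, and 3397 with S1/S2 and 3340 with Havcr1-negative barcodes, and day 14 against day 7 had 6212, and 4028 and 3115. Day 14 against day 11 had 1718, and 2631 with no filter, 3148 with all kept barcodes, 685 with S1/S2 and 1093 with S3 barcodes. The Havcr1 states had 1760, and 2745 with at least 2 Havcr1 UMIs and 870 with barcodes thinned to 1000 UMIs, a fit of fewer libraries and genes. With S1/S2 barcodes alone 3653 genes were past 2-fold on day 1 and 2706 on day 2.

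Leaving out 1 library at a time gave these ranges. Day 11 against control had 979 to 3962 called genes, with Pck1 from −0.0547 to 0.12, G6pc from −0.37 to 0.13 and Pcx from −0.26 to 0.19. Day 14 against control had 249 to 1885, with Fbp1 from 0.75 to 0.77 (edgeR adjusted p from 0.0235 to 0.237). Day 11 against day 7 had 3820 to 5474. Day 14 against day 11 had 365 to 2400, with Fbp1 from 0.58 to 0.61 (edgeR adjusted p from 0.0205 to 0.224) and Pcx from −0.29 to 0.17. Between segments G6pc ran from −0.39 to −0.19 and Fbp1 from −0.013 to 0.22. The Havcr1 states had 541 to 1997, with Pck1 from −1.20 to −0.70 and Fbp1 from −1.0 to −0.62. The control and days 1, 2 and 4 could not be left out of their own comparisons, having 1 library each.

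With the replicate number as a replicate block, 5918 genes were called for day 11 and 6070 for day 14 when set against day 7, and 1881 for day 14 when set against day 11, and of the members' calls only Fbp1 on day 14 against day 11 was lost (0.58, edgeR adjusted p = 0.0529). The differences between replicate 1 and replicate 2 were not correlated over genes between days (r from −0.019 to 0.025). Whether same-numbered libraries share an animal or a batch is not given in the sources used here. A block could not be fitted against the lone control. Depth limits G6pc and Pcx most, with 33 and 34 UMIs in replicate 1 of day 7, and values of few barcodes, such as 34 Havcr1-positive ones in replicate 1 of day 11.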

Other observations

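Of the kept barcodes 12336 met no class rule and entered no comparison. They held Pck1 at 25.9 CPM, G6pc at 5.94, Fbp1 at 47.6 and Pcx at 7.30, which was 2.98%, 3.68%, 4.10% and 7.59% of the proximal level. In 201 lymphocyte barcodes 1 Pck1 UMI, 10 Fbp1 UMIs and no G6pc or Pcx UMI were counted, and the exact 95% limit for a count of 0 was 10.9 CPM.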
